A study of Mus musculus with 6 samples.

Results

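The 74 genes described here encode actins and actin-binding proteins, myosins, tubulins, keratins and the tropomyosins, calponins, filamins and talins that bind or link these filaments. They were chosen by gene symbol from the authors' table of 6467 genes, and the symbol rule left out Tuba8. RefSeq's GRCm38.p6 gene table holds 203 protein-coding genes whose symbols match the same rule, of which these 74 (36.5%) are in the authors' table and 129 are not. The authors' table holds the genes with a q-value below 0.05, which are 37.9% of the 17077 genes they tested. Every member has therefore passed the authors' own test, and the highest q-values among the members are 0.0448 for Mylk2 and 0.0440 for Actg2. Myh11, Cnn1, Des, Vim, Krt8, Krt18, Myl9, Myh9 and Myh10 are outside the table, and their levels were not analysed here.

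The libraries hold RNA of CD8+ T cells that were sorted out of tumours of MC38, a colon carcinoma line of the mouse, in wild-type C57/B6J mice. The treated group of 3 libraries came from mice given 30 µg αPD-1-IL-15-R, in which, by the title, IL-15 is concealed on an antibody against PD-1, by intraperitoneal injection on days 14 and 17, with cells taken 48 hours after the last injection. The other 3 libraries came from mice given PBS. The labels do not say whether a library is 1 mouse or a pool, so p-values measure only the spread between these libraries, which may be technical, and no group received the antibody or IL-15 alone.

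Actin filaments grow from monomers that thymosins and profilin hold in reserve. They are branched by the Arp2/3 complex, disassembled by cofilin and pulled by myosins, and T cells use this machinery to crawl and to build the synapse with a target cell. Muscle, fibroblasts and pericytes use dedicated isoforms of the same families (smooth muscle actin, tropomyosin, transgelin, filamin C) to contract, and keratins are the intermediate filaments of epithelia. Many of these families therefore hold one gene that leukocytes express strongly and a paralogue used mainly by muscle, stroma or nerve.

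Levels are given as TPM, the transcript abundance the authors deposited, which corrects for gene length, and changes as the log2 of treated over PBS from an edgeR fit on the read counts of the whole table. Reads of the table's genes summed to between 8484736 and 9403710 per library. In that fit an adjusted p under 0.05 was reached by 16.4% of the 6261 fitted table genes in the higher direction and 20.8% in the lower direction. Treated library 1 stood apart from treated libraries 2 and 3, since 15 fibroblast markers summed to 547 TPM in it, against 53.7 and 69.2 TPM in the other two. Among PBS libraries the same markers summed to 3007, 1531 and 2662 TPM. Results for lower genes are therefore given with and without treated library 1 where its removal moved them by more than 1.5 times.

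The cytoskeletal genes divided almost evenly, with 36 up and 38 down by the fold changes of the authors' deposited table, where 42.3% of all genes are higher and 57.7% lower, and the listed leukocyte and contractile genes lay on opposite sides. Of 31 genes listed as the leukocyte cytoskeleton, 24 were in the table, and 23 of these were higher, the median of the 24 being 0.65 on the log2 scale. Of 34 listed contractile genes, 10 were in the table, and 9 of these were lower, with a median of -2.51 over the 6 that could be fitted. The other 40 members, on neither list, divided into 12 higher and 28 lower, with a median of -1.53. The median over all fitted table genes was -0.58. Both lists were drawn up with earlier results of these libraries known and the table is itself selected, so the lists are described and not tested.

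The edgeR fit covered 70 of the 74 members and called 36 of them, or 51.4%, against a background of 37.3% of fitted table genes, with 21 rising and 15 falling. Over all fitted genes 44.1% of the calls were higher, and other scalings gave 62.4% (TMM), 56.9% (median ratio) and 16.9% (total reads). Actg2, Myh1, Myl10 and Mylk2 had too few reads to be fitted. By list, 13 of 24 leukocyte genes rose and 0 fell, while 2 of 6 contractile genes fell and 0 rose. DESeq2 called 34 higher and 35 lower of the same 70, where it called 97.9% of fitted table genes, and limma-voom 29 and 32, where it called 75.8%. The edgeR calls lie close to the threshold, since without PBS library 1, PBS library 3, treated library 2 or treated library 3 no member and no other table gene was called. In these fits 52 to 58 members still had an unadjusted p under 0.05, as did 4233 to 4904 of the 6280 to 6362 fitted table genes. Normalised counts did not overlap between the groups for 36 members above and 37 below, in a table where 42.1% of genes lie wholly above and 57.2% wholly below.

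**Figure D1:**
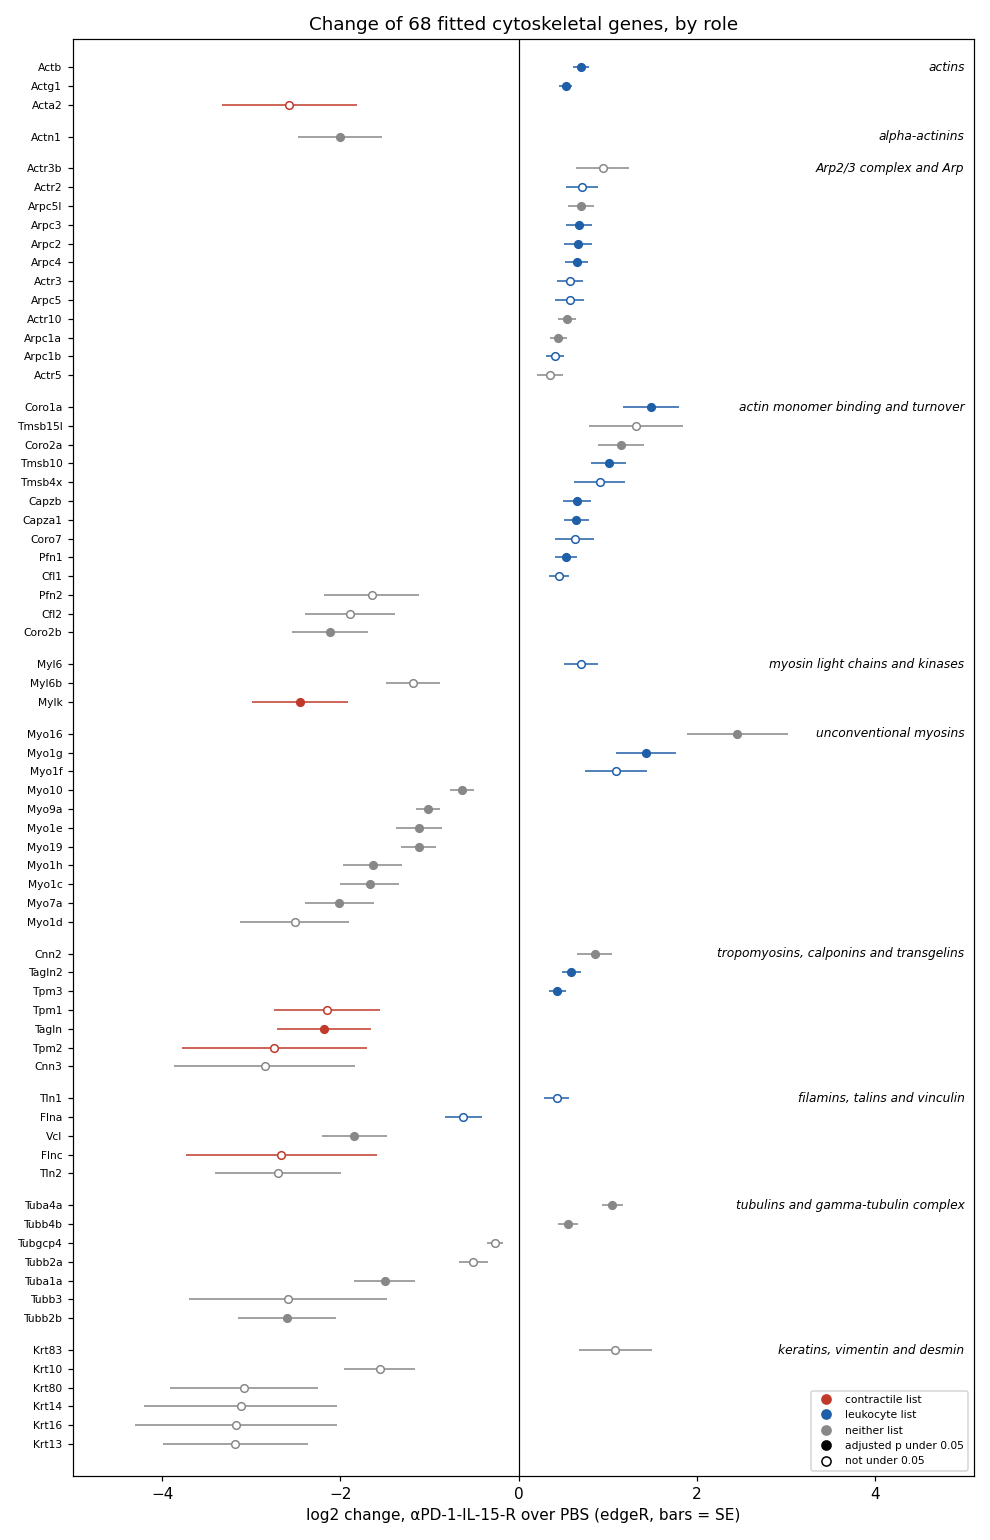
Log2 change of treated over PBS for 68 of the 70 fitted genes, arranged by role, with bars showing the SE. Filled points have an edgeR adjusted p under 0.05; 23 of the 24 leukocyte genes (blue) lie right of 0 and the 6 contractile genes (red) lie left of it. Under the T cell scaling 2 of the 24 lie right of 0.

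The direction of the leukocyte genes depended on the scaling. Under the authors', TMM, median-ratio and total-read scalings alike, 23 of the 24 were above 0. Another scaling set the libraries on 26 T cell receptor signalling genes instead of the authors' size factors. These were the 26 of 33 listed that are in the table, and all 26 were higher there, with a median of 1.25. This scaling was therefore bound to lower all changes. The median of all fitted genes then stood at -2.13 and the leukocyte median at -0.80, with 2 of the 24 above 0 and 22 below. The contractile median then stood at -3.93. Between the lists, the contractile median was below the leukocyte median by a difference of -3.16 under the authors' scaling and -3.13 under the T cell scaling. A scaling moves all genes of a library together, so this difference could hardly change and is no test of the order of the lists. The statements of genes rising in the following paragraphs hold relative to the authors' scaling, as do those of genes falling. With the T cell scaling 0 members were called while 47 of the 70 had an unadjusted p under 0.05, as had 4445 of the 6261 fitted table genes.

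The cells were sorted as CD8+ T cells, and markers of other cell types differed beside the cytoskeletal genes. The 15 fibroblast markers in the table, of 16 listed, were all lower and summed to 53.7 to 547 TPM in the treated libraries and 1531 to 3007 TPM in PBS. All 16 macrophage markers were lower, summing to 409 to 1266 TPM in the treated libraries and 3525 to 4813 TPM in PBS, as were 10 of 13 endothelial markers, at 2.96 to 5.66 TPM in the treated libraries and 18.6 to 30.5 TPM in PBS. Of 13 mural cell markers, 7 were lower and 1, Kcnj8, was higher, at 4.66 to 18 TPM in the treated libraries and 46.3 to 81.3 TPM in PBS in sum. The T cell markers were higher for all 10 of 18 that are in the table, Cd8b1 among them, summing to 5015 to 5896 TPM in the treated libraries and 1725 to 4816 TPM in PBS, while Cd8a and Cd3e are outside the table. Only 2 of 14 epithelial markers were in the table, and they differed in direction. Spint1 fell by 2.39 (SE 0.31, edgeR adjusted p = 0.0402), while Cdh1 stood at 0.72 (SE 0.21, edgeR adjusted p = 0.066), and Epcam was outside the table. The sum of both was 13.3 to 18.9 TPM in the treated libraries and 20.7 to 28.7 TPM in PBS. No marker in the table of any of these lists was at 0 in all libraries of a group. The part of these cell types in the cytoskeletal changes was not tested, and in bulk RNA fewer cells of a type and less RNA per cell cannot be told apart.

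**Figure D2:**
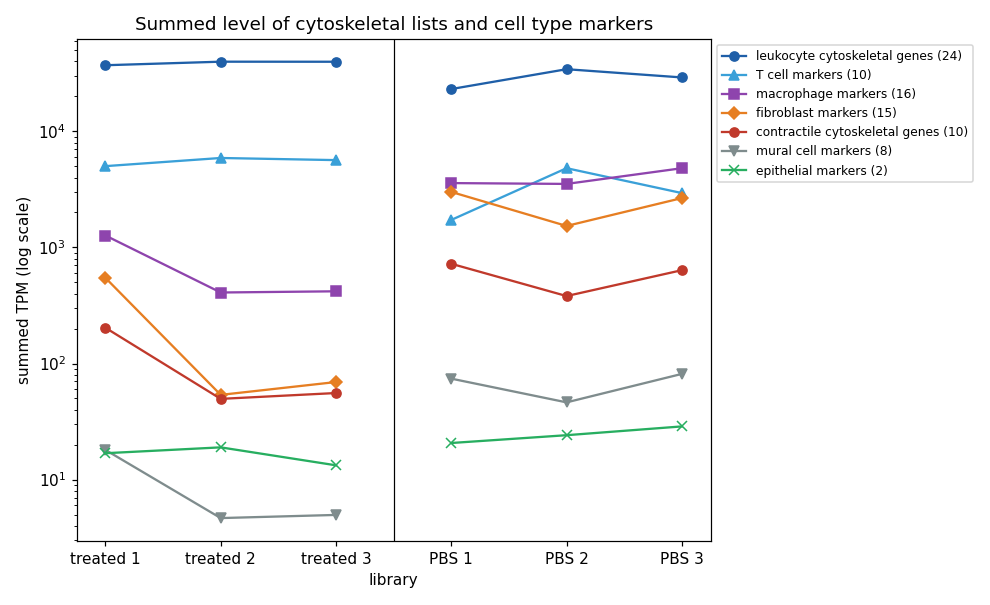
Summed TPM of the leukocyte and contractile cytoskeletal genes and of cell type markers in each library, on a log axis, with the number of genes in the table in brackets. The contractile sum lies at 203, 49.6 and 55.7 TPM in treated libraries 1 to 3, below the 381 to 723 TPM of the PBS libraries, and ranks the libraries in the same order as the sum of the fibroblast markers.

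Within a library, the ratio of the leukocyte sum to the contractile sum does not depend on scaling. It was 183, 803 and 714 in treated libraries 1 to 3, against 32, 90 and 45.8 in PBS libraries 1 to 3, so the groups did not overlap. Tpm1 made up 84.3% to 93.0% of the contractile sum in every library, and without it the ratio was still separate, at 1373 or more in the treated libraries and 574 or less in PBS. All genes of both sums had passed the authors' test, 23 of 24 leukocyte genes higher and 9 of 10 contractile genes lower. The separation was therefore built into the choice of genes and is no further support. Contractile genes relative to fibroblast markers gave 0.372, 0.924 and 0.804 in treated libraries 1 to 3, against 0.24, 0.249 and 0.239 in PBS libraries 1 to 3. That ratio was nearly constant in PBS and was higher in each treated library, most in the 2 with the lowest fibroblast marker sums. Without Tpm1 it was 0.0494, 0.0645 and 0.0933 in treated libraries 1 to 3, against 0.0333, 0.039 and 0.037 in PBS libraries 1 to 3, higher in each treated library by less. The fibroblast markers did not all rank the PBS libraries alike. Their sum was highest in PBS library 1, while Lum, Postn and Thbs2 were lowest there. Leukocyte cytoskeletal genes relative to T cell markers gave 7.4, 6.75 and 7.04 in treated libraries 1 to 3, against 13.4, 7.12 and 9.91 in PBS libraries 1 to 3, where PBS library 2 lay among the treated libraries.

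The promoters of 6 members are shown because the serum response factor element, the CArG box, is the textbook control site of actin-linked genes, and members on both sides of the comparison carry it. Serum response factor works with a coactivator that monomeric actin holds back, so that actin assembly itself feeds into transcription of these genes. RefSeq promoter entries (GRCm38.p6, 250 bases before to 50 after a start) were found for 59 of the 74 members, and 6 of these, or 10.2%, held an exact CArG box, against 1.81% of the 27025 genes with an entry and 1.73% of the table's genes. The consensus is its own reverse complement, so a search of one strand finds matches on both. By direction, 4 of 31 higher members and 2 of 28 lower members held it. Each line shows 100 bases in lower case with the CArG box in capitals.
Actg1 (chr11:120348496-120348595, minus strand): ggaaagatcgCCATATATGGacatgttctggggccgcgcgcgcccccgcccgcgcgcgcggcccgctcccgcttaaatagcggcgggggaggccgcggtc
Cnn2 (chr10:79988500-79988599, plus strand): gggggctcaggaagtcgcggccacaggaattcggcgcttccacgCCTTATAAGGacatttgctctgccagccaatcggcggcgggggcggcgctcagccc
Myl6 (chr10:128493010-128493109, minus strand): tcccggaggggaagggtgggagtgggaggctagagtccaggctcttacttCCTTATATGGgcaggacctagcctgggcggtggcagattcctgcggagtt
Arpc4 (chr6:113377863-113377962, plus strand): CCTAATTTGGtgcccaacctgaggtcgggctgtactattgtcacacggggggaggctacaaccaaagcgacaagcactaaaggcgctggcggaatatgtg
Myo1e (chr9:70207250-70207349, plus strand): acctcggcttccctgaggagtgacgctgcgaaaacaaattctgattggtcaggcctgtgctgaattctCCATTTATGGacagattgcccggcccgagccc
Vcl (chr14:20929148-20929247, plus strand): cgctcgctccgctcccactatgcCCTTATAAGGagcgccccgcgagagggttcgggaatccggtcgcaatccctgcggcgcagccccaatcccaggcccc
The box begins 90 bases before the start in Actg1, 56 in Cnn2, 50 in Myl6 and 32 in Myo1e, and lies farther out, at 227 and 250 bases, in Vcl and Arpc4. Actg1, Cnn2, Myl6 and Arpc4 were higher in the treated libraries while Myo1e and Vcl were lower, so members sharing the element lay on both sides. A match is a description of these letters and not of binding.

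Of the actin genes, the 2 cytoplasmic isoforms rose, a direction that turned under the T cell scaling, and the 2 smooth muscle isoforms were lower, Acta2 under each scaling. Actg1, cytoplasmic gamma-actin, was at 5060.3, 4705 and 4583 TPM in treated libraries 1 to 3, against 3773, 4320.2 and 4290.2 TPM in PBS libraries 1 to 3. All treated libraries lay above all PBS libraries, and Actg1 rose by 0.53 (SE 0.07, edgeR adjusted p = 0.0402). Actb, cytoplasmic beta-actin, was at 2691, 2447 and 2449 TPM in the treated libraries, against 1666, 2034 and 2107 TPM in PBS, and rose by 0.70 (SE 0.09, edgeR adjusted p = 0.0402), the same direction in 3 of 3 treated libraries. Acta2, alpha smooth muscle actin and a standard marker of pericytes and activated fibroblasts, was at 1.54, 0.16 and 1.02 TPM in treated libraries 1 to 3, against 4.27, 9.63 and 6.76 TPM in PBS libraries 1 to 3. Its treated libraries were all below PBS but spread widely, treated library 2 being the lowest. The log2 change was -2.58 (SE 0.76, edgeR adjusted p = 0.0674), or -2.91 (edgeR adjusted p = 0.0326) without treated library 1. Unlike most lower members, Acta2 was highest in PBS library 2 and lowest in PBS library 1. Actg2, enteric smooth muscle actin, had 0 reads in each treated library and 3, 3 and 8 reads in PBS libraries 1 to 3, at least 4.26-fold lower against a floor of 3 reads over the treated group.

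All 12 genes of the actin-related group were higher, with log2 changes of 0.35 to 0.94 in the authors' deposited table, and 6 were called by edgeR, although all 12 stood below 0 under the T cell scaling. Arpc2, Arpc3, Arpc4 and the isoform genes Arpc1a and Arpc5l, subunits of the Arp2/3 complex, rose, as did Actr10, a subunit of dynactin, the cofactor of the dynein motor. Arpc2 was at 712, 765 and 751 TPM in treated libraries 1 to 3, against 471, 689.5 and 591 TPM in PBS libraries 1 to 3. The groups were separate, with PBS library 2 closest to the treated ones, and Arpc2 rose by 0.67 (SE 0.16, edgeR adjusted p = 0.0489). Arpc5l rose by 0.69 (SE 0.15, edgeR adjusted p = 0.0438) and Arpc4 by 0.65 (SE 0.13, edgeR adjusted p = 0.0415). Actr2 and Actr3, which encode the Arp2 and Arp3 subunits themselves, stood at 0.71 and 0.58, with edgeR adjusted p of 0.0513 and 0.0505. Arpc1b, the subunit isoform that predominates in blood cells, stood at 0.41 (SE 0.10, edgeR adjusted p = 0.0522), and its paralogue Arpc1a at 0.45 (SE 0.10, edgeR adjusted p = 0.0447). Actr3b, a scarcer Arp3 isoform, had the largest value of the group at 0.94 (SE 0.30, edgeR adjusted p = 0.0761), on 2.42 ± 0.346 TPM in the treated libraries and 1.67 ± 0.205 TPM in PBS (SD, n = 3 each). The smallest was that of Actr5, a subunit of the INO80 chromatin remodeller and not of Arp2/3, at 0.35 (SE 0.14, edgeR adjusted p = 0.141).

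Genes that hold, deliver, cap or sever actin were also mostly higher, with 10 of 13 above PBS in the authors' deposited table, 6 rising and 1 falling in the edgeR fit, against 2 of 13 above 0 under the T cell scaling. The thymosins, which sequester actin monomers, had the highest mean levels of all members in both groups. Tmsb10 was at 7808, 9445 and 9702 TPM in treated libraries 1 to 3, against 4194, 6825 and 5798 TPM in PBS libraries 1 to 3. Each treated library exceeded each PBS library, and Tmsb10 rose by 1.01 (SE 0.20, edgeR adjusted p = 0.0424). Tmsb4x was at 7699, 9199 and 8734 TPM in the treated libraries, against 3627, 7918 and 5624 TPM in PBS, so on the TPM scale PBS library 2 lay above treated library 1. Its log2 change was 0.91 (SE 0.28, edgeR adjusted p = 0.0745), or 1.0 (edgeR adjusted p = 0.0472) without treated library 1. Tmsb15l, a low thymosin gene, was at 8.24, 8.61 and 8.54 TPM in the treated libraries, against 1.67, 7.19 and 3.82 TPM in PBS, and stood at 1.32 (SE 0.53, edgeR adjusted p = 0.135).

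Coro1a, the coronin of blood cells that T cells need for survival and trafficking, had the largest rise among the leukocyte genes. It was at 1180.4, 1256 and 1267 TPM in treated libraries 1 to 3, against 348, 801 and 502 TPM in PBS libraries 1 to 3. The treated libraries lay close together while the PBS libraries were spread, PBS library 2 being the highest of them, and Coro1a rose by 1.48 (SE 0.31, edgeR adjusted p = 0.0438), or 2.8-fold. Coro2a rose by 1.14 (SE 0.26, edgeR adjusted p = 0.0465), and Coro7, a coronin of the Golgi, stood at 0.63 (SE 0.22, edgeR adjusted p = 0.093). Coro2b, a coronin best known from nerve cells, fell by 2.12 (SE 0.42, edgeR adjusted p = 0.0425). It was scarce in every library, at 0.20, 0.25 and 0.13 TPM in the treated libraries, against 1.03, 0.75 and 1.35 TPM in PBS. The capping protein genes Capza1 and Capzb, whose products close the growing ends of filaments, rose by 0.65 and 0.65 on the log2 scale, with edgeR adjusted p of 0.0442 and 0.0498.

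Profilin and cofilin each split between their isoforms. Pfn1, the ubiquitous profilin that hands monomers to growing ends, rose by 0.53 (SE 0.13, edgeR adjusted p = 0.0476). Pfn2, the profilin of nerve tissue, was at 6.29, 2.33 and 1.77 TPM in the treated libraries, against 16.7, 9.62 and 13.4 TPM in PBS, and stood at -1.65 (SE 0.53, edgeR adjusted p = 0.0799), or -2.35 (edgeR adjusted p = 0.00457) without treated library 1. Cfl1, the non-muscle cofilin, averaged 2453 ± 166 TPM in the treated libraries and 2227 ± 229 TPM in PBS (SD, n = 3 each) and stood at 0.45 (SE 0.12, edgeR adjusted p = 0.0534). Cfl2, the muscle cofilin, was at 12.7, 3.96 and 4.36 TPM in the treated libraries, against 38.6, 22.8 and 33.9 TPM in PBS. All treated libraries were lower, treated library 1 being the highest of them, and the log2 change was -1.90 (SE 0.50, edgeR adjusted p = 0.0572), or -2.59 (edgeR adjusted p = 0.00144) without that library.

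The conventional myosins were sparsely represented. Of 14 RefSeq genes for their heavy chains only Myh1, a fast skeletal isoform, was in the table, with 2 reads in the treated libraries and 38 in PBS, a 17.3-fold ratio of PBS over treated with a 95% interval of 4.46 to 148. That interval is exact (Clopper-Pearson) and covers counting error only. Mylk, the kinase that starts smooth muscle contraction by phosphorylating myosin light chains, was at 1.88, 0.71 and 0.50 TPM in treated libraries 1 to 3, against 8.01, 4.79 and 8.07 TPM in PBS libraries 1 to 3. All treated libraries were below PBS, and Mylk fell by 2.45 (SE 0.54, edgeR adjusted p = 0.0455), or stood at -3.16 (edgeR adjusted p = 0.00151) without treated library 1. Mylk2, its skeletal muscle counterpart, had 1, 1 and 3 reads in treated libraries and 9, 8 and 10 in PBS.

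The light chain genes pointed both ways. Myl6, the non-muscle essential light chain, was at 1468, 1747 and 1606 TPM in the treated libraries, against 1065, 1518 and 1085 TPM in PBS, and stood at 0.70 (SE 0.19, edgeR adjusted p = 0.0575), or 0.78 (edgeR adjusted p = 0.037) without treated library 1. Myl6b, its paralogue, averaged 2.06 ± 0.526 TPM in the treated libraries and 5.86 ± 0.688 TPM in PBS (SD, n = 3 each) and stood at -1.19 (SE 0.31, edgeR adjusted p = 0.0538). Myl10 was the exception among the listed contractile genes, with 9, 3 and 10 reads in treated libraries 1 to 3 and 0, 1 and 0 in PBS, a 24.2-fold ratio with a 95% counting interval of 3.91 to 999.

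Unconventional myosins, which move membranes and cargo along actin, fell more often than they rose: 7 of the 12 fell and 2 rose in the edgeR fit. Myo1g, a membrane-bound motor restricted to blood cells, was at 140.1, 153 and 156 TPM in treated libraries 1 to 3, against 38.8, 98.9 and 70.9 TPM in PBS libraries 1 to 3. The treated libraries were all higher and closer together, and Myo1g rose by 1.43 (SE 0.33, edgeR adjusted p = 0.048). Its relative Myo1f, also of blood cells, was at 77.6, 90.2 and 79.3 TPM in the treated libraries, against 26.2, 68.7 and 50.5 TPM in PBS, and stood at 1.09 (SE 0.34, edgeR adjusted p = 0.0766). Myo16 had the largest rise of any fitted member, 2.45 (SE 0.57, edgeR adjusted p = 0.0474), at a low level of 2.11 ± 0.438 TPM in the treated libraries and 0.49 ± 0.298 TPM in PBS (SD, n = 3 each).

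The class I myosins of other tissues were lower. Myo1c, which tethers membranes in many cell types, was at 27.9, 14 and 13.7 TPM in treated libraries 1 to 3, against 84, 52.4 and 81.6 TPM in PBS libraries 1 to 3, and fell by 1.67 (SE 0.34, edgeR adjusted p = 0.043). Myo1e fell by 1.12 (SE 0.25, edgeR adjusted p = 0.0468) and Myo1h by 1.64 (SE 0.33, edgeR adjusted p = 0.0425). Myo1d stood at -2.51 (SE 0.61, edgeR adjusted p = 0.0504), or -3.41 (edgeR adjusted p = 0.00138) without treated library 1. Myo7a, known from the sensory hair cells of the ear, fell by 2.01 (SE 0.39, edgeR adjusted p = 0.0418). Myo10, the motor of filopodia, Myo9a and Myo19, a mitochondrial motor, fell by less, at -0.64, -1.02 and -1.12, with edgeR adjusted p of 0.0445, 0.0402 and 0.0402. Myo9a was at 2.26, 2.16 and 1.99 TPM in the treated libraries, against 5.24, 4.59 and 6.34 TPM in PBS, so its treated libraries differed little from each other. The call of Myo10 was lost without treated library 1, at -0.63 (edgeR adjusted p = 0.0512).

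Tropomyosins, calponins and transgelins, which wrap or bundle actin filaments, split between isoforms, with Tpm3, Cnn2 and Tagln2 higher under the authors' scaling and Tpm1, Tpm2, Cnn3 and Tagln lower. Tpm3, a cytoplasmic tropomyosin, was at 704, 699 and 732 TPM in treated libraries 1 to 3, against 593, 689.6 and 674 TPM in PBS libraries 1 to 3, and rose by 0.43 (SE 0.10, edgeR adjusted p = 0.0468), a call lost without treated library 1, at 0.47 (edgeR adjusted p = 0.052). Tpm1 was at 176, 46.1 and 49.2 TPM in the treated libraries, against 623, 321 and 538 TPM in PBS. Every treated library was below every PBS library, with treated library 1 well above the other two, and the log2 change was -2.15 (SE 0.59, edgeR adjusted p = 0.061), or -2.99 (edgeR adjusted p = 0.00157) without treated library 1. Tpm2, the tropomyosin of smooth and slow skeletal muscle, was at 18.3, 1.2 and 2.59 TPM in the treated libraries, against 74.2, 33.9 and 65.4 TPM in PBS, and stood at -2.74 (SE 1.04, edgeR adjusted p = 0.116), or -4.62 (edgeR adjusted p = 0.00163) without that library.

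Calponin 2, the isoform of blood and many other cells, was higher and calponin 3 lower. Cnn2 was at 544, 556 and 519 TPM in the treated libraries, against 297, 475 and 344 TPM in PBS, and rose by 0.85 (SE 0.19, edgeR adjusted p = 0.047). Cnn3 was at 44.4, 3.96 and 5.01 TPM in the treated libraries, against 195, 98.4 and 167 TPM in PBS, and stood at -2.85 (SE 1.02, edgeR adjusted p = 0.0993), or -4.76 (edgeR adjusted p = 0.00101) without treated library 1. The treated values of Cnn3 ranged over about an order of magnitude. Tagln2, the transgelin of lymphocytes, which stabilises actin at the T cell synapse, was at 852, 818 and 939 TPM in the treated libraries, against 696, 738 and 719 TPM in PBS, and rose by 0.59 (SE 0.11, edgeR adjusted p = 0.0402). Tagln, an early marker of smooth muscle, was at 0.83, 0.34 and 0.75 TPM in the treated libraries, against 1.72, 4.46 and 4.92 TPM in PBS, and fell by 2.19 (SE 0.53, edgeR adjusted p = 0.0498). Like Acta2 and unlike Tpm1 it was lowest among PBS libraries in PBS library 1.

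Filament crosslinkers and the linkers of focal adhesions were lower with 1 exception. Tln1, which connects integrins to actin in leukocytes, was at 153, 153 and 150.3 TPM in treated libraries 1 to 3, against 110.2, 157 and 155 TPM in PBS libraries 1 to 3, where the TPM values of the groups overlapped. Its log2 change on read counts was 0.42 (SE 0.14, edgeR adjusted p = 0.0834). Tln2, the talin of muscle and brain, was at 2.01, 0.41 and 0.47 TPM in the treated libraries, against 9.64, 4.61 and 8.4 TPM in PBS, and stood at -2.70 (SE 0.71, edgeR adjusted p = 0.0563), or -3.77 (edgeR adjusted p = 0.00124) without treated library 1. Vcl, vinculin, the partner of talin at focal adhesions, was at 9.39, 3.83 and 4.45 TPM in the treated libraries, against 27.6, 20 and 30.2 TPM in PBS, and fell by 1.84 (SE 0.36, edgeR adjusted p = 0.0422).

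The filamins, which crosslink actin into networks, differed in size of change. Flna, the broadly expressed filamin, was at 184, 117 and 123 TPM in the treated libraries, against 281, 214 and 305 TPM in PBS. It was the only listed leukocyte gene that was lower, its normalised counts overlapped between groups, and it stood at -0.62 (SE 0.20, edgeR adjusted p = 0.0833), or -0.82 (edgeR adjusted p = 0.0206) without treated library 1. Flnc, the filamin of muscle, was at 3.3, 0.34 and 0.22 TPM in the treated libraries, against 11.3, 6.16 and 11.9 TPM in PBS, and stood at -2.66 (SE 1.07, edgeR adjusted p = 0.139), or -4.79 (edgeR adjusted p = 0.00101) without treated library 1. Actn1, a non-muscle alpha-actinin of focal adhesions, averaged 22.9 ± 15.7 TPM in the treated libraries and 112 ± 23.7 TPM in PBS (SD, n = 3 each) and fell by 2.01 (SE 0.47, edgeR adjusted p = 0.0483), or stood at -2.67 (edgeR adjusted p = 0.00101) without that library.

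The tubulins, subunits of microtubules, differed by isoform. Tuba4a was at 105, 96.3 and 105 TPM in treated libraries 1 to 3, against 55, 68.5 and 59.9 TPM in PBS libraries 1 to 3. All treated libraries were higher with little spread, and Tuba4a rose by 1.05 (SE 0.12, edgeR adjusted p = 0.0402). Tubb4b was at 268, 222 and 245 TPM in the treated libraries, against 215, 199 and 205 TPM in PBS, and rose by 0.55 (SE 0.11, edgeR adjusted p = 0.043), a call lost without treated library 1, at 0.52 (edgeR adjusted p = 0.0609). Tuba1a, the alpha-tubulin of developing neurons, was at 296, 159.5 and 182 TPM in the treated libraries, against 979.9, 499.9 and 730.3 TPM in PBS, and fell by 1.5 (SE 0.34, edgeR adjusted p = 0.0468).

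Tubb3, the beta-tubulin used as a neuronal marker and also found in tumour cells, was at 101, 8.35 and 8.36 TPM in the treated libraries, against 403, 164 and 274 TPM in PBS. Treated libraries 2 and 3 were far below the rest while treated library 1 lay between them and PBS. The log2 change was -2.58 (SE 1.11, edgeR adjusted p = 0.168), or -4.73 (edgeR adjusted p = 0.00116) without treated library 1. Tubb2b fell by 2.60 (SE 0.55, edgeR adjusted p = 0.0442) and Tubb2a stood at -0.51 (SE 0.16, edgeR adjusted p = 0.0753). The estimated counts of Tubb2a and Tubb2b are fractional in all 6 libraries but sum to whole reads in all 6 within 0.01, so reads were shared between this similar pair and neither gene's own value is certain. The pair together held 217, 200 and 191 reads in treated libraries 1 to 3, against 380, 327 and 420 in PBS. After scaling this is 212 ± 7.63 reads in the treated libraries and 358 ± 43.5 in PBS (SD, n = 3 each), 1.68-fold lower in the treated libraries. Fractional counts were also present for 11 other members, among them Tuba1a, Tuba4a, Tagln, Vcl and Pfn1. Tubgcp4, a component of the gamma-tubulin ring that seeds microtubules, stood at -0.27 (SE 0.09, edgeR adjusted p = 0.0788), the smallest change of any fitted member and above 0, at 0.15, with median-ratio scaling.

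Of 53 RefSeq keratin genes that match the rule, 6 were in the table, 5 lower and 1 higher, and edgeR called 0 of the 6. DESeq2 called all 6, where it called 97.9% of fitted table genes. The unadjusted edgeR p was under 0.05 for each, as for 6138 of the 6261 fitted table genes. Krt14, the keratin of basal epithelial cells, had the most reads and was at 31.9, 2.59 and 3.34 TPM in treated libraries 1 to 3, against 188, 79.1 and 126 TPM in PBS libraries 1 to 3. The 3 treated libraries were all lower, but treated library 1 held about an order of magnitude more than the others. The log2 change was -3.12 (SE 1.08, edgeR adjusted p = 0.093), or -5.15 (edgeR adjusted p = 0.00113) without treated library 1. Krt16, a keratin of stressed epidermis, and Krt13, of mucosal epithelia, were scarce, with 12, 1 and 0 reads of Krt16 in treated libraries 1 to 3 and 66, 16 and 48 in PBS. Without treated library 1, Krt16 stood at -5.95 (edgeR adjusted p = 0.0113), Krt13 at -4.36 (edgeR adjusted p = 0.0219) and Krt80 at -4.52 (edgeR adjusted p = 0.00101), against -3.17, -3.18 and -3.08 with it. Krt10, the keratin of differentiating epidermis, stood at -1.56 (SE 0.40, edgeR adjusted p = 0.0523). Krt83, a hair keratin, was the one that was higher, at 4.62, 4 and 4.36 TPM in the treated libraries, against 1.46, 3.96 and 2.2 TPM in PBS, with 1.08 (SE 0.41, edgeR adjusted p = 0.115).

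**Figure D3:**
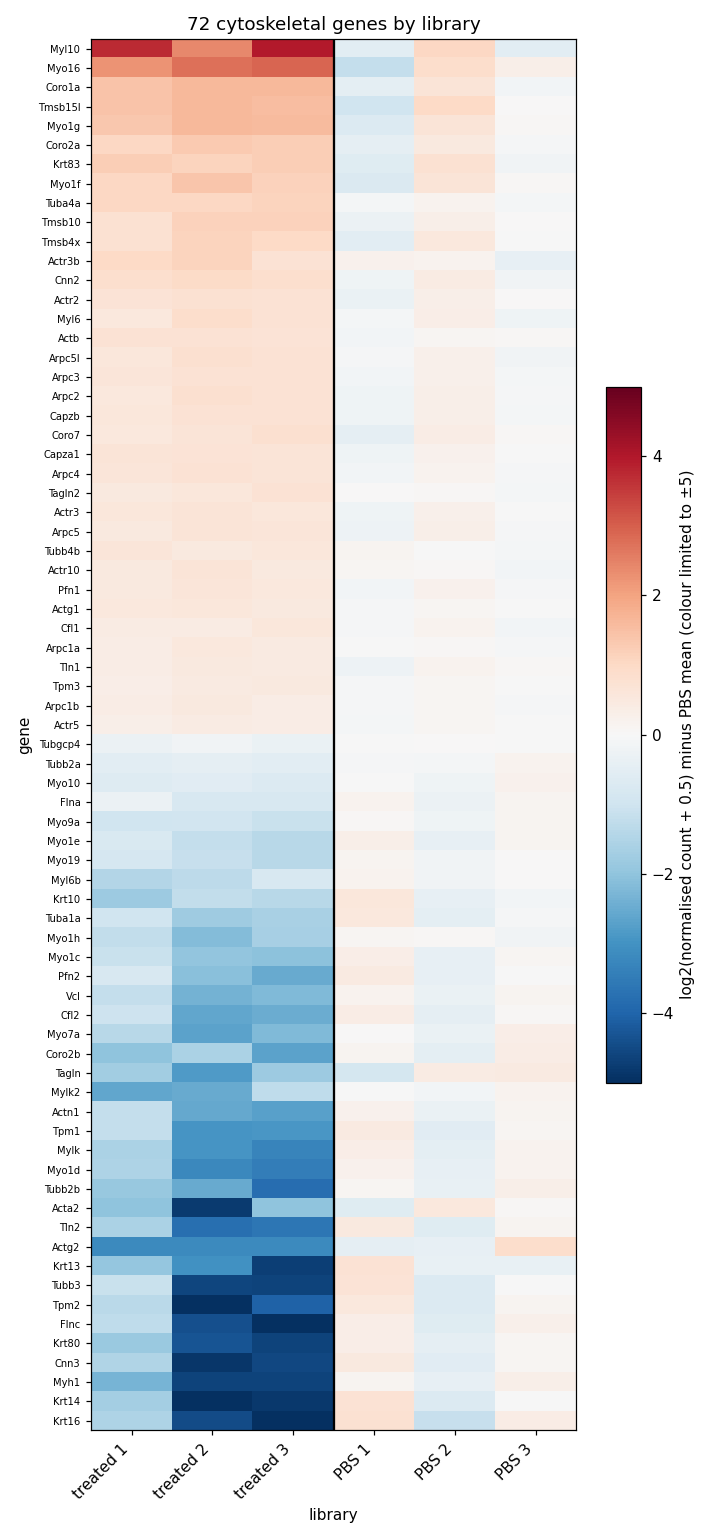
Log2 of the normalised count plus 0.5 relative to the PBS mean for 72 of the 74 genes (rows, from highest to lowest change) in each library (columns, treated left of PBS). Most higher genes differ little among the treated libraries, while many of the lower genes are paler in treated library 1 than in treated libraries 2 and 3.

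Isoform shares within a family give the same comparison without any scaling between libraries, since both parts come from the same library. They are described without a test because the pairs were chosen after the values were seen. Each share counts only genes in the table. Tubb5, Tuba1b, Tuba1c and Tpm4 are among those outside it, so the tubulin and tropomyosin shares are not of whole families. Of the summed TPM of Cnn2 and Cnn3, Cnn3 made up 7.54, 0.707 and 0.956% in treated libraries 1 to 3, against 39.7, 17.2 and 32.7% in PBS libraries 1 to 3. Of that of Tpm1, Tpm2 and Tpm3, Tpm1 and Tpm2 made up 21.6, 6.34 and 6.61% in treated libraries 1 to 3, against 54, 34 and 47.3% in PBS libraries 1 to 3. In both families every treated library was below every PBS library, with treated library 1 the highest treated library and PBS library 2 the lowest PBS library. Of the talins, Tln2 took 0.624 ± 0.58% in the treated libraries and 5.34 ± 2.6% in PBS (SD, n = 3 each). Of the cofilins, Cfl2 took 0.284 ± 0.198% in the treated libraries and 1.44 ± 0.482% in PBS, and of the profilins Pfn2 took 0.122 ± 0.087% in the treated libraries and 0.563 ± 0.227% in PBS. These 3 shares were also lower without overlap.

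Blood cell myosins and the rising tubulins differed the other way. Of the TPM of the 7 class I myosins in the table, Myo1f and Myo1g together made up 78.2, 88.3 and 88.4% in treated libraries 1 to 3, against 27.6, 61.2 and 42.2% in PBS libraries 1 to 3. Of Tuba1a and Tuba4a, Tuba4a made up 26.3, 37.6 and 36.6% in treated libraries 1 to 3, against 5.31, 12 and 7.58% in PBS libraries 1 to 3. Of the 4 beta-tubulins in the table, Tubb4b made up 85 ± 12.7% in the treated libraries and 42 ± 9.26% in PBS (SD, n = 3 each). These 3 shares were all higher in the treated libraries without overlap, and PBS library 2 was in each case the closest PBS library. Coro1a dominated the 4 coronins in the table in both groups, with 89.5 ± 0.115% in the treated libraries and 85.1 ± 1.54% in PBS (SD, n = 3 each). Smooth muscle actin was a trace of the summed TPM of Acta2, Actb and Actg1 in every library, at 0.0199, 0.00224 and 0.0145% in treated libraries 1 to 3, against 0.0784, 0.151 and 0.106% in PBS libraries 1 to 3.

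**Figure D4:**
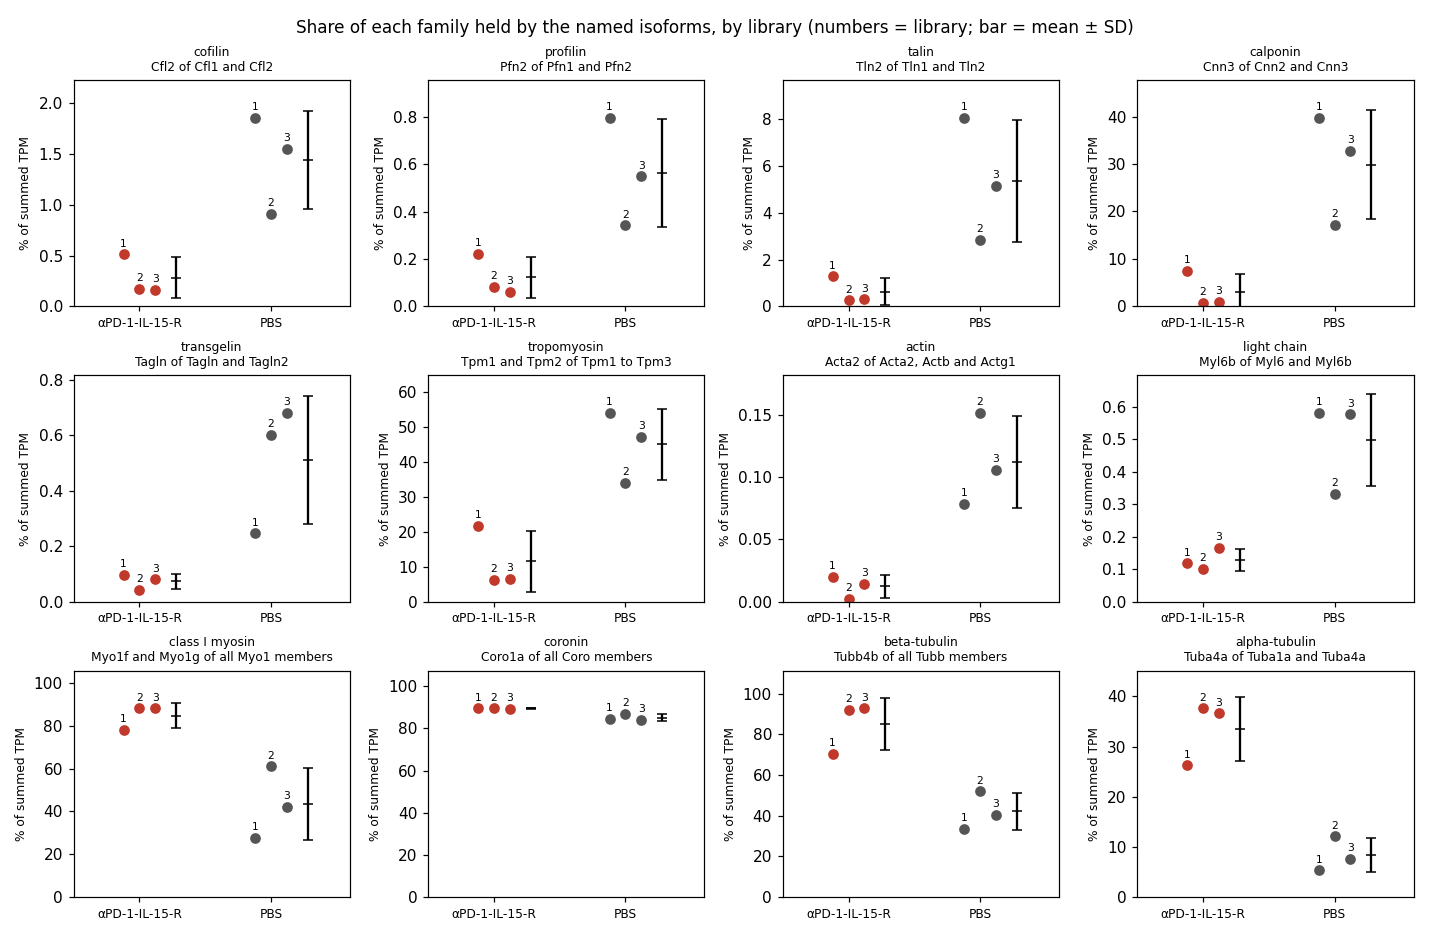
Percent of summed TPM held by the isoforms named above each panel, among the genes given there, all of them in the table. Treated (red) and PBS (grey) libraries carry the library number at each point, with the mean ± SD beside them. In all 12 panels the treated and PBS libraries do not overlap, for example 7.54, 0.707 and 0.956% in treated and 39.7, 17.2 and 32.7% in PBS libraries for Cnn3. The panels were chosen after the values were seen, and 62.4% of higher and 99.8% of lower table genes do not overlap in TPM.

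The members also varied together between libraries of one group. Of the 38 lower members, 24 were highest in PBS library 1 and lowest in PBS library 2, a share of 63.2% against 64.4% of all lower table genes, and 30 were highest in treated library 1, a share of 78.9% against 86.6%. Of the 36 higher members, 26 were lowest in PBS library 1 and highest in PBS library 2, or 72.2% against 60.5% of all higher table genes. The lower members spread more among the treated libraries, with a median coefficient of variation of 63.9%, than the higher members at 5.81%, as over all table genes, where it was 45.8% for lower and 9.04% for higher genes. Without treated library 1 the median log2 change of the 35 lower members fitted both ways stood at -2.52, against -2.01 with it. EdgeR then called 31 lower members, Myh1 among them, in place of 15. Lower calls also became more numerous over the whole table, where 33.1% of calls were higher without this library, against 44.1% with it. For the higher members the median log2 change stood at 0.70 without this library, against 0.67 with it. In both fits 21 were called, though Tmsb4x and Myl6 gained a call and Tpm3 and Tubb4b lost theirs.

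On the TPM scale all 38 lower members had ranges that did not overlap between the groups, as 99.8% of lower table genes did. Of the 36 higher members 28 did, or 77.8%, against 62.4% of higher table genes. The median over members of the mean TPM was 227 in the treated libraries and 186 in PBS for higher members, and 2.22 in the treated libraries and 12.9 in PBS for lower members. In all, 8 members averaged over 1000 TPM in the treated libraries, namely Tmsb10, Tmsb4x, Actg1, Pfn1, Actb, Cfl1, Myl6 and Coro1a. The 74 genes together took 6.21% to 6.40% of the table's TPM in the treated libraries and 4.67% to 6.19% in PBS.

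Other genes of the same machinery were listed as background. Of 34 symbols for leukocyte actin regulators, 26 were in the table, all 26 higher in the authors' deposited table. Their median was 1.13 on the log2 scale, and 6 of them rose in the edgeR fit. Rasgrp2, Skap1 and Was, which switch on Rap1, anchor the integrin machinery and activate Arp2/3, rose by 1.64 (SE 0.38, edgeR adjusted p = 0.0476), 1.61 (SE 0.34, edgeR adjusted p = 0.0443) and 1.43 (SE 0.33, edgeR adjusted p = 0.0476). Under the T cell scaling, whose genes include Skap1 and Vav1, 7 of the 26 stood above 0 and 19 below.

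Of 33 symbols for the smooth muscle programme, 15 were in the table, 13 lower and 2 higher, with 7 falling in the edgeR fit and a median of -2.29. Synm, an intermediate filament protein of muscle, fell by 3.28 (SE 0.40, edgeR adjusted p = 0.0402), and Itga8, an integrin of smooth muscle and fibroblasts, by 3.13 (SE 0.43, edgeR adjusted p = 0.0402). Cald1, caldesmon, stood at -2.97 (SE 1.0, edgeR adjusted p = 0.0877), or -4.83 (edgeR adjusted p = 0.00101) without treated library 1. Zyx, a focal adhesion protein, and Mrtfa, the actin-sensing coactivator of serum response factor, were the 2 higher, at 0.88 (SE 0.21, edgeR adjusted p = 0.05) and 0.63 (SE 0.17, edgeR adjusted p = 0.0603), or 0.96 (edgeR adjusted p = 0.0285) and 0.70 (edgeR adjusted p = 0.0418) without treated library 1. Of 20 genes of striated muscle thin filaments and sarcomeres, 10 were in the table, 5 each way. Neb and Ryr1 rose by 2.77 (SE 0.54, edgeR adjusted p = 0.0422) and 2.14 (SE 0.36, edgeR adjusted p = 0.0402), at low treated means of 6.83 and 0.33 TPM. Myom1 fell by 2.21 (SE 0.51, edgeR adjusted p = 0.0473), or stood at -3.00 (edgeR adjusted p = 0.003) without treated library 1. Tnnt2, the most abundant of the 10, stood at -3.15 (SE 0.96, edgeR adjusted p = 0.072), or -4.82 (edgeR adjusted p = 0.00102) without that library. The 10 summed to 20.8 to 76.8 TPM in the treated libraries and 183 to 409 TPM in PBS.

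Actin regulators used by many cell types split much as the whole table did. Of 31 in the table, 12 were higher (38.7%) and 19 lower (61.3%), against 42.3% and 57.7% of all table genes. By edgeR 3 rose and 4 fell. Parvg, the parvin of blood cells, rose by 1.54 (SE 0.35, edgeR adjusted p = 0.0472), while Wasf1, Cttn and Lima1 stood at -3.16, -2.78 and -2.75, with edgeR adjusted p of 0.0793, 0.105 and 0.0948. Without treated library 1 these 3 stood at -5.52 (edgeR adjusted p = 0.00162), -4.64 (edgeR adjusted p = 0.00106) and -4.52 (edgeR adjusted p = 0.00101). Among microtubule regulators 4 of 16 were higher and 12 lower, with 1 rising and 7 falling. Map1b and Mapt, the microtubule-associated proteins of neurons, stood at -2.86 (SE 0.90, edgeR adjusted p = 0.0766) and -2.85 (SE 0.92, edgeR adjusted p = 0.0801), or -4.46 (edgeR adjusted p = 0.00101) and -4.46 (edgeR adjusted p = 0.00207) without treated library 1, and Tppp3 fell by 2.56 (SE 0.44, edgeR adjusted p = 0.0402). Of the lamins, neurofilaments and desmosome genes, 7 of 15 were higher (46.7%) and 8 lower (53.3%), also near the split of the whole table, with 4 called each way. Nes, the intermediate filament nestin of progenitor and vessel-wall cells, fell by 3.78 (SE 0.69, edgeR adjusted p = 0.0406), or stood at -4.96 (edgeR adjusted p = 0.00484) without treated library 1. Evpl, envoplakin, rose by 2.17 (SE 0.41, edgeR adjusted p = 0.0407) and Nefh, a neurofilament subunit, by 1.73 (SE 0.36, edgeR adjusted p = 0.0437).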

How the data were processed

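Bulk RNA-seq libraries of sorted tumour CD8+ T cells were sequenced at BGI, 3 treated and 3 PBS. The authors deposited 1 table of 6467 genes with an estimated (expected) count and a TPM per library, group means, a log2 fold change and, per gene, a p-value with its q-value, per the file headers. HISAT2 and RSEM are named in the submitters' processing notes. The genome build and annotation are not given in the sources used here. The q-values were recomputed by Benjamini-Hochberg adjustment over 17077 genes and matched within 7.45e-16, so the deposited table is the set with q under 0.05.

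Estimated counts were rounded to whole numbers and tested with edgeR 4.0.16 (R 4.3.3, quasi-likelihood test, treated against PBS, no covariates), using the authors' size factors recovered from their deposited log2 changes over the 3105 genes above 200 reads, and Benjamini-Hochberg adjustment over 17077 genes. Of the 6467 genes, 6261 passed edgeR's filter on low counts. TPM is the authors' value and depends on genes outside the table. DESeq2 1.42.0, limma-voom and limma-trend on log2(TPM + 1) (limma 3.58.1) were alternatives. In data simulated for this comparison on 6261 genes, 200 of them changed, edgeR recovered 28% of changes of log2 2 and 0% of log2 1, with 0 unchanged genes called. The adjustment depends on how many genes change, and in the real libraries 6138 of the 6261 had an unadjusted edgeR p under 0.05. These rates therefore do not carry over to the real comparison. The members and lists were chosen with earlier results of these data known. Genes named were, in each role, the 3 largest rises and falls and the highest mean TPM, in each other list at most the 3 largest rises and falls, and a preset group of actin, smooth muscle and keratin genes; further genes were named after their values were seen. The values of 2 members are counted but not reported here by name. Replicate numbers were not used as pairs.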

Additional observations from a re-analysis of the deposited data

How the results depend on the processing

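The direction of the fitted lower members held under each alternative except for Tubgcp4 with median-ratio scaling, while counts near the threshold moved. Scaling on the T cell receptor genes called 0 genes in either direction and turned the leukocyte median to -0.80, Actb to -0.78, Actr3b to -0.58, Actr2 to -0.71, Arpc5l to -0.80, Arpc2 to -0.78, Coro2a to -0.23, Tmsb10 to -0.43, Actg1 to -0.97, Tln1 to -1.02, Krt83 to -0.20, Myl6 to -0.77, Cnn2 to -0.57, Tagln2 to -0.94, Tpm3 to -1.06, Tuba4a to -0.43, Tubb4b to -0.99 and Myo1f to -0.22, with the contractile median at -3.93. By number of higher calls, all genes gave 1029 in the main analysis, 1997 with TMM, 2263 with median-ratio and 411 with total-read scaling, 2649 when adjusted over the fitted genes alone, 2637 by DESeq2, 1885 by limma-voom and 530 on log2 TPM. Lower calls over all genes were 1304, against 2027 with total-read scaling, 3475 when adjusted over the fitted genes, 3495 by DESeq2, 2862 by limma-voom and 3426 on log2 TPM. Higher members numbered 21, against 3 with total-read scaling, 34 when adjusted over the fitted genes, 34 by DESeq2 and 6 on log2 TPM. Lower members numbered 15, against 33 when adjusted over the fitted genes, 35 by DESeq2, 32 by limma-voom and 35 on log2 TPM. Contractile genes called lower numbered 2, against 1 with TMM, 4 without a filter on low counts, 5 when adjusted over the fitted genes and 6 by each of the other tools and on log2 TPM. Leukocyte genes called higher numbered 13, against 20 with median-ratio and 2 with total-read scaling, 23 when adjusted over the fitted genes, 23 by DESeq2, 21 by limma-voom and 4 on log2 TPM. The leukocyte median was 0.65, against 0.91 with TMM, 1.06 with median-ratio scaling and 0.34 on log2 TPM. Leaving out 1 library at a time gave 0 to 1651 higher and 0 to 3049 lower calls over all genes, 0 to 32 and 0 to 31 among members, 0 to 7 among contractile and 0 to 22 among leukocyte genes. Same-numbered libraries correlated at 0.60, 0.60 and -0.24 in their deviations from the group means, and differently numbered ones at -0.70 to 0.56. Deviations from means of 3 libraries cannot settle whether the replicate numbers are pairs. A fit with the replicate block called 1743 genes higher and 2608 lower, with 26 and 26 of the members. The causes were not tested. Depth limits the genes with few reads, where only counting intervals are given. Changes of log2 1 were not recovered in simulated data with 200 changed genes, a setting unlike the real libraries, where smaller changes such as that of Tpm3 were called.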
